A study of Mus musculus with 8 samples.

Results

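Genes for 10 tissue-specific regulators of alternative splicing were followed in mouse sarcomas with and without HIF-2α: Nova1, Nova2, Rbfox1, Rbfox2, Mbnl1, Mbnl2, Celf2, Ptbp1, Ptbp2 and Qk. They were taken by symbol from a table of raw read counts for 26667 genes, in which all 10 were found and all 10 passed the filter on low counts. The list was chosen by family around Nova1, which had been selected on its low counts in KPH2 2 to 4 against KP tumours in the same comparison, so its difference between the groups is described here and not tested. The tumours were undifferentiated pleomorphic sarcomas (UPS), an aggressive soft tissue sarcoma, from 4 KP mice, which carried Trp53 fl/fl and a further Cre-dependent allele, and 4 KPH2 mice, which carried both of these and Epas1 fl/fl. They were numbered KP 5 to KP 8 and KPH2 1 to KPH2 4. Cre recombinase, delivered by an adenovirus (Ad-Cre) injected into hind limb muscle at an age of 8 weeks or older, acted on both shared alleles and so deleted p53 in both groups, and in KPH2 mice it also deleted Epas1, which encodes HIF-2α. Mice of both sexes on a mixed 129/C57BL/6 background were used, with tumours collected at a fixed time (7 weeks) or at a size limit, and which of these applied to each sequenced tumour is not given in the sources used here. Host cells that Ad-Cre did not reach kept intact alleles, and the sections held them together with tumour cells.

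Alternative splicing lets one gene give several mRNAs, and regulators of this kind decide in which tissue an exon is kept by binding short motifs in the RNA near it. NOVA proteins are best known from neurons, RBFOX proteins from neurons, heart and skeletal muscle, and MBNL proteins from muscle, where they promote adult splice forms and are sequestered by the repeat RNA of myotonic dystrophy. CELF proteins often act on the same exons as MBNL in the opposite direction, PTBP1 represses neuronal exons in most cells outside the nervous system, and QKI, the product of Qk, acts in glia, muscle and mesenchymal cells. Gene counts give how much RNA of each regulator was present, and do not show which of its exons, or of its targets' exons, were included.

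The exons below show what such regulators act on, and were chosen because 2 of the 10 members, Ptbp2 and Rbfox1, hold well-known examples. Skipping of a 34-base exon of Ptbp2, promoted by PTBP1, shifts the reading frame and lowers the amount of PTBP2 protein. Rbfox1 carries a 40-base exon used in brain and a 43-base exon used in muscle, which replace each other between the same neighbouring exons. None of the 3 lengths is a multiple of 3. The sequences were read from GENCODE transcripts of GRCm38, 5′ to 3′ on the gene's strand, with the exon in capitals and 15 bases of the neighbouring exons in lower case.

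Ptbp2, 34-base coding exon at chr3:119724612-119724645, minus strand, in 3 of 13 annotated transcripts: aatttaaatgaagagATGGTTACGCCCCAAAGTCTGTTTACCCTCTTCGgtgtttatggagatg

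Rbfox1, 40-base coding exon at chr16:7363865-7363904, plus strand, in 4 of 8 annotated transcripts: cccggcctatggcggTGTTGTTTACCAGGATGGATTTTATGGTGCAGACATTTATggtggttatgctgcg

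Rbfox1, 43-base coding exon at chr16:7369801-7369843, plus strand, in 2 of 8 annotated transcripts: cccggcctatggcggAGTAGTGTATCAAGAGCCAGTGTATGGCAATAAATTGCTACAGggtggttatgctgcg

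RNA came from formalin-fixed, paraffin-embedded (FFPE) sections, was depleted of ribosomal RNA and was sequenced as 1 library per tumour, with 6463221 to 13155510 counted reads. Levels are given as CPM, counts scaled to a common library size after TMM normalization (per 1e+06 reads), in the order of the tumour numbers. KPH2 1 is kept apart throughout, since the study dropped a knockout tumour that it judged a technical outlier, and KPH2 1 is absent from its table of 7 tumours. Comparisons therefore set KPH2 2 to 4 against KP 5 to 8, and values over all 8 tumours follow. Epas1, the deleted gene, stood over its whole length at 59.1, 83.0, 86.7 and 83.9 CPM in KP tumours, at 53.3, 37.7 and 42.4 CPM in KPH2 2 to 4, and at 32.6 CPM in KPH2 1. It was lower in each KPH2 tumour than in each KP tumour, with a log2 fold change of −0.81 (SE 0.19, adjusted p = 0.0742 by the edgeR quasi-likelihood test, with Benjamini-Hochberg adjustment across every gene tested). Markers of other cell types also differed between tumours. The mean log2 CPM of 30 skeletal muscle markers was 4.45, 3.61, 3.30 and 4.48 in KP 5 to 8, 6.58, 7.22 and 4.89 in KPH2 2 to 4, and 3.34 in KPH2 1. All 30 were fitted higher in KPH2 2 to 4, and 3 of them, Eno3, Neb and Myoz2, passed the test (called markers are named after their values were seen). All 12 macrophage markers and 9 of 10 endothelial markers were fitted lower, with none past the test and 5 in each list at an unadjusted p under 0.05, which 17.8% of all tested genes had. The 10 mesenchymal markers were abundant in every tumour, at a mean log2 CPM of 9.24 to 10.3. Of these, 9 were fitted lower and 1, Pdgfra, passed the test as lower. Of 8 tested Schwann cell markers, 5 were fitted higher and 3 lower. Sox10 was under 1 CPM in every tumour, while other markers of that list were counted throughout. Mbp stood at 8.45 to 15.4 CPM in KP and 10.1 to 12.6 CPM in KPH2 2 to 4. Cnp stood at 12.9 to 27.3 CPM in KP and 25.1 to 27.7 CPM in KPH2 2 to 4. These were named after their values were seen. Of 11 tested lymphoid markers, 9 were fitted lower and none was called, with 1 at an unadjusted p under 0.05. That marker was Ptprc, at 140 to 275 CPM in KP and 109 to 137 CPM in KPH2 2 to 4, named after its values were seen.

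Nova1 had the widest difference between the groups among the 10 genes, being abundant enough to count in every KP tumour and at a few CPM in KPH2 2 to 4, while its paralog Nova2 overlapped between the groups. Both encode KH-domain proteins that bind clusters of the tetranucleotide YCAY. Nova1 (Entrez Gene 664883) lies on the minus strand at chr12:46697895-46819480 of GRCm38, and Nova2 (Entrez Gene 384569) on the plus strand at chr7:18925888-18965319. Nova1 was counted at 15.9, 28.4, 29.0 and 30.4 CPM in KP 5 to 8, and at 0.989, 1.80 and 3.26 CPM in KPH2 2 to 4, from only 11, 18 and 29 reads. The 11 reads of KPH2 2 have an exact 95% Poisson interval of 5.49 to 19.7 reads, or 0.493 to 1.77 CPM, which covers counting error only. KPH2 1 had 8.62 CPM from 108 reads, below all 4 KP tumours and above the other KPH2 tumours, so the groups did not overlap with or without it. KP tumours averaged 25.9 ± 6.76 CPM (SD, n = 4), whereas KPH2 2 to 4 averaged 2.02 ± 1.15 CPM (SD, n = 3), 12.9-fold lower. The fitted log2 fold change was −3.70 (SE 0.43, 95% interval −4.69 to −2.71), and −2.80 (SE 0.60) over all 8 tumours. With the mean of the muscle markers as a covariate it was −2.81 over the 7 tumours. That mean was higher in KPH2 2 to 4 than in any KP tumour, so this fit cannot tell muscle content and genotype apart. In bulk tissue, fewer cells of a type and less RNA per cell cannot be told apart.

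Nova2 stood at 4.82, 10.2, 12.9 and 7.23 CPM in KP tumours, at 7.55, 3.30 and 7.87 CPM in KPH2 2 to 4, and at 4.47 CPM in KPH2 1. The groups overlapped, with a log2 fold change of −0.48 (SE 0.42). Per kb of merged exon, which allows levels of different genes to be compared, the ratio of Nova1 to Nova2 was 3.15, 2.67, 2.16 and 4.03 in KP 5 to 8, 0.125, 0.522 and 0.397 in KPH2 2 to 4, and 1.85 in KPH2 1. Nova1 was thus the more abundant paralog in all 4 KP tumours and in KPH2 1, and Nova2 in KPH2 2 to 4. Neuronal markers differed widely in level, and 4 of them, Rbfox3, Elavl3, Nefh and Stmn3, were under 1 CPM in all 8 tumours. Others were well counted. Stmn2 stood at 36.01 to 119.6 CPM in KP, 108.3 to 214.9 CPM in KPH2 2 to 4 and 21.1 CPM in KPH2 1. Nefl stood at 6.37 to 108.5 CPM, 136.9 to 197.1 CPM and 27.2 CPM in the same order. These genes were named after their values were seen. Over the whole list of 15 neuronal markers, none at 0 in every tumour, the summed level was 138 to 311 CPM in KP, 479 to 763 CPM in KPH2 2 to 4 and 120.3 CPM in KPH2 1. Of the 10 tested, 6 were fitted higher and 4 lower, and 1, the microtubule-associated protein gene Mtap2 (Map2), passed the test as higher. The sums were carried by a few abundant genes, and the mean log2 CPM of the list overlapped between the groups, at 1.17 to 1.999 in KP, 1.74 to 2.22 in KPH2 2 to 4 and 1.57 in KPH2 1. The part of neuronal cells in the Nova1 difference was not tested.

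**Figure D1:**
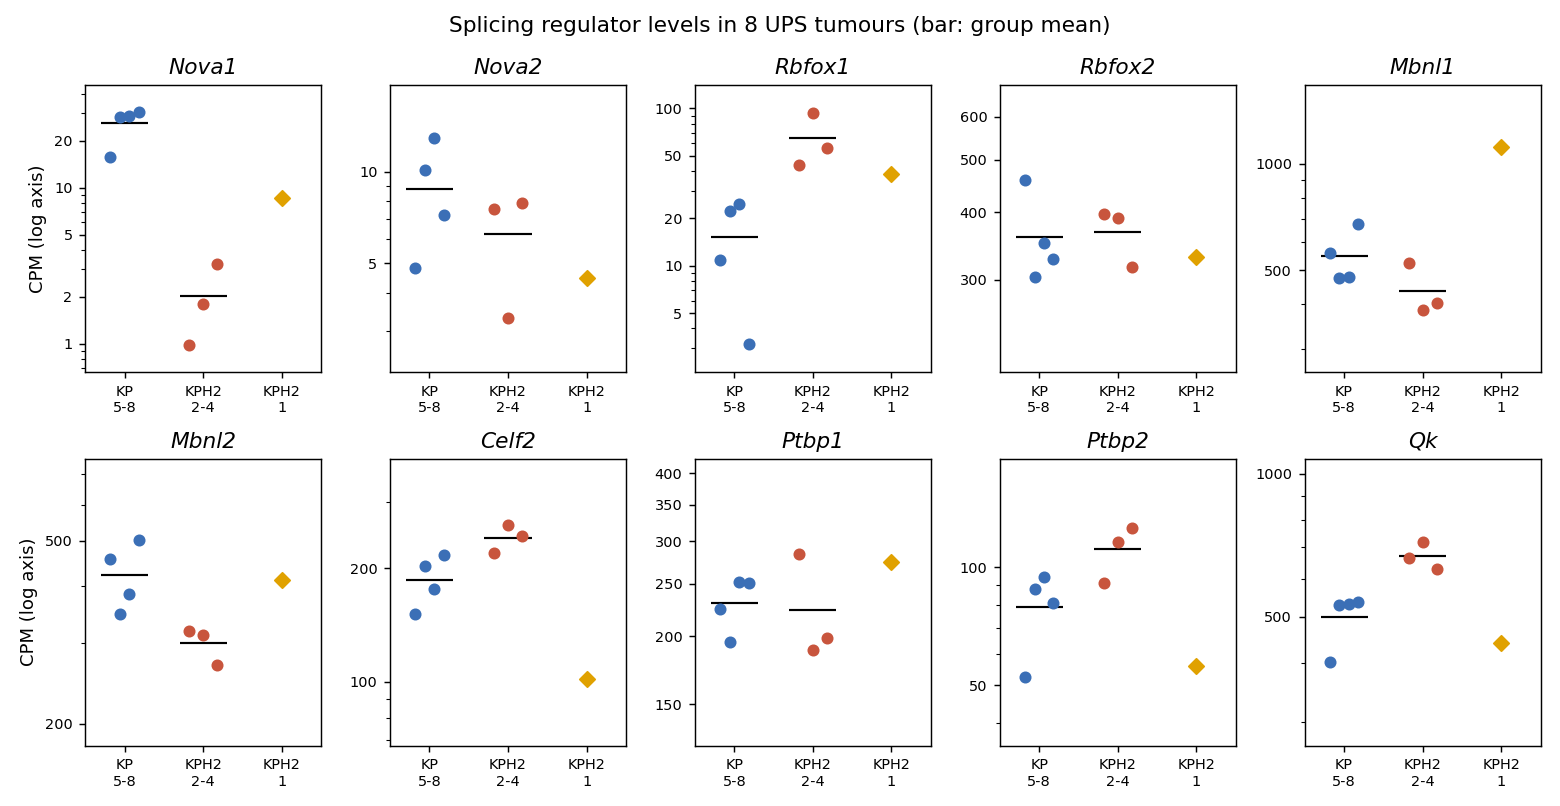
Level of each of the 10 regulators in each tumour, as TMM-scaled CPM on a log axis, with KP tumours, KPH2 2 to 4 and KPH2 1 marked separately. Nova1 was 15.9 to 30.4 CPM in KP and 0.989 to 3.26 CPM in KPH2 2 to 4, and Rbfox1 was 3.16 to 24.6 CPM in KP and 43.5 to 94.0 CPM in KPH2 2 to 4.

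Rbfox1 went the other way from Nova1, with higher values in each KPH2 tumour than in each KP tumour, but its fitted difference did not pass the test. RBFOX proteins bind the motif UGCAUG. Rbfox1 (Entrez Gene 268859) spans chr16:5884793-7412480 on the plus strand, and Rbfox2 (Entrez Gene 93686), its more widely expressed paralog, lies at chr15:77078990-77308434 on the minus strand. Rbfox1 was found at 10.9, 22.2, 24.6 and 3.16 CPM in KP 5 to 8, at 43.5, 94.0 and 56.4 CPM in KPH2 2 to 4, and at 38.1 CPM in KPH2 1. The means were 15.2 ± 9.998 CPM (SD, n = 4) and 64.6 ± 26.2 CPM (SD, n = 3), 4.25-fold apart. The log2 fold change was 2.11 (SE 0.60, 95% interval 0.72 to 3.50, adjusted p = 0.125 by edgeR with Benjamini-Hochberg adjustment), and 1.95 (SE 0.57) over all 8 tumours. DESeq2 with a normal prior gave Rbfox1 a log2 fold change of 1.62, with a Benjamini-Hochberg adjusted p of 0.00492 for the 7 tumours, where DESeq2 called 5.38% of all genes it tested. KPH2 1 had a muscle marker mean of 3.34 log2 CPM, within the KP range of 3.30 to 4.48. With the muscle marker mean as a covariate the log2 fold change of Rbfox1 over the 7 tumours was 2.70. Its adjusted p in that fit was 0.740 by edgeR. The muscle mean of KPH2 2 to 4 lay above that of every KP tumour, so this fit cannot tell muscle content and genotype apart. The part of muscle tissue in the difference was not tested further. Rbfox2 was measured at 458, 304, 351 and 328 CPM in KP, at 398, 391 and 316 CPM in KPH2 2 to 4, and at 331 CPM in KPH2 1, with a log2 fold change of 0.03 (SE 0.18). Per kb of exon, Rbfox1 stood at 0.0440, 0.135, 0.130 and 0.0179 of the level of Rbfox2 in KP 5 to 8, at 0.202, 0.445 and 0.329 in KPH2 2 to 4, and at 0.213 in KPH2 1. Rbfox2 was the more abundant paralog in every tumour, and its share of the family was smaller in all 4 KPH2 tumours.

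The muscleblind genes were abundant, and neither passed the test. Mbnl1 (Entrez Gene 56758, chr3:60472559-60629750, plus strand) was counted at 561, 476, 479 and 676 CPM in KP 5 to 8, at 524, 386 and 404 CPM in KPH2 2 to 4, and at 1116 CPM in KPH2 1, the highest value of all. The direction of Mbnl1 turned on that tumour, with a log2 fold change of −0.32 (SE 0.19) without KPH2 1 and 0.15 (SE 0.34) with it. Mbnl2 (Entrez Gene 105559, chr14:120275652-120431698, plus strand) stood at 457, 347, 383 and 503 CPM in KP, at 319, 312 and 269 CPM in KPH2 2 to 4, and at 412 CPM in KPH2 1. KPH2 2 to 4 lay below all KP tumours, while KPH2 1 lay among them. The log2 fold change of Mbnl2 was −0.50 (SE 0.17, 95% interval −0.89 to −0.10), and −0.37 with KPH2 1. Per kb of exon the ratio of Mbnl1 to Mbnl2 stayed between 0.786 and 1.05 in 7 tumours and was 1.74 in KPH2 1.

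Celf2 and Qk had slightly higher levels in KPH2 2 to 4 than in any KP tumour, but KPH2 1 did not share this. Celf2 (Entrez Gene 14007, chr2:6539694-7396341, minus strand), a regulator known from muscle, brain and T cells, was found at 151, 202, 176 and 217 CPM in KP 5 to 8, at 219, 260.5 and 244 CPM in KPH2 2 to 4, and at 101 CPM in KPH2 1, the lowest of all. Its log2 fold change was 0.37 (SE 0.16), and 0.14 over all 8 tumours. Qk (Entrez Gene 19317, chr17:10206471-10319361, minus strand) encodes a STAR-family RNA-binding protein best known for its part in myelination. It was measured at 401, 529, 533 and 538 CPM in KP, at 665, 717 and 631 CPM in KPH2 2 to 4, and at 439.9 CPM in KPH2 1, within the KP range. Its log2 fold change was 0.42 (SE 0.16), and 0.29 over all 8 tumours.

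The polypyrimidine tract binding proteins showed overlapping groups. Ptbp1 (Entrez Gene 19205, chr10:79854432-79864435, plus strand) was counted at 224.5, 195, 252 and 251 CPM in KP 5 to 8, at 284, 189 and 198 CPM in KPH2 2 to 4, and at 274 CPM in KPH2 1, with a log2 fold change of −0.05 (SE 0.18). A gene on the opposite strand that is also in the count table overlaps Ptbp1, and whether the counting used strand is not given in the sources used here. Ptbp2 (Entrez Gene 56195, chr3:119718741-119784647, minus strand), the paralog induced as progenitors become neurons, stood at 52.5, 88.1, 94.1 and 81.1 CPM in KP, at 91.1, 116 and 126 CPM in KPH2 2 to 4, and at 55.9 CPM in KPH2 1. Its log2 fold change was 0.49 (SE 0.22), and 0.30 over all 8 tumours. Per kb of exon, Ptbp2 stood at 0.121 to 0.233 of Ptbp1 in KP tumours, at 0.166, 0.317 and 0.328 in KPH2 2 to 4, and at 0.105 in KPH2 1, so that Ptbp1 was the more abundant of the pair in each tumour. These counts do not say how much Ptbp2 RNA held the 34-base exon printed above.

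Of the 10 members, 5 were fitted higher and 5 lower in KPH2 2 to 4. Nova1 was the 1 member with an adjusted p under 0.05, where 1.96% of 14867 tested genes had one (0.72% as lower), and nothing is read from this, since the comparison put it in the list. Over all 8 tumours edgeR called 0 members and 0.00675% of all genes, with 2 members and 14.7% of all genes at an unadjusted p under 0.05. Of the 9 members other than Nova1, DESeq2 called Rbfox1 without KPH2 1, where it called 5.38% of all genes, and with KPH2 1, where it called 2.88%. The other 9 members had adjusted p-values of 0.125 to 0.954 by edgeR with KPH2 2 to 4. Nova1 left aside, the groups did not overlap for Rbfox1, Mbnl2, Celf2 and Qk, 4 members of 9 (3 higher, 1 lower), where 16.9% of all tested genes did not overlap (8.73% higher, 8.15% lower). With KPH2 1 included 1 of these 9, Rbfox1, did not overlap, against 8.22% of tested genes (3.75% higher, 4.47% lower). The median log2 fold change of the 10 members was −0.01, and that of all tested genes −0.02. KPH2 1 lay outside the range of the KP tumours for 6 members and inside it for 4.

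**Figure D2:**
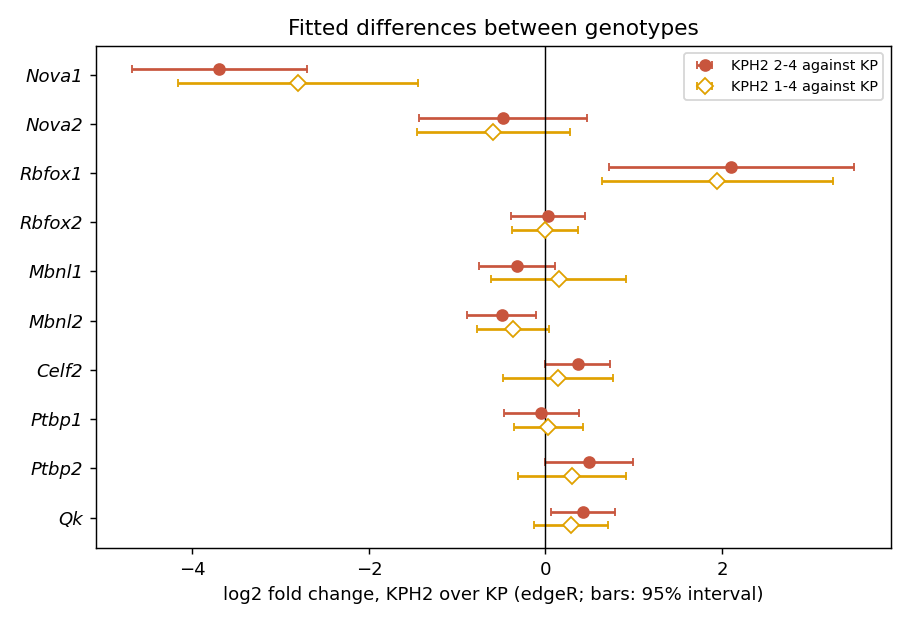
Fitted log2 fold change of each member, KPH2 over KP, with its 95% interval from edgeR, for KPH2 2 to 4 and for all 4 KPH2 tumours. Nova1 lies at −3.70 and −2.80 and Rbfox1 at 2.11 and 1.95, while the other members lie between −0.59 and 0.49.

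The order of the 10 genes was compared per kb of merged exon (GENCODE exons on GRCm38, whereas the counting used RefSeq genes). In KP tumours Ptbp1 stood highest at 48.6 ± 5.63 CPM per kb (SD, n = 4), followed by Rbfox2 at 44.2 ± 8.36, Mbnl2 at 35.3 ± 5.89, Qk at 35.1 ± 4.64 and Mbnl1 at 29.3 ± 5.03 CPM per kb, whose neighbours in the order overlapped over the 4 tumours. A second group lay apart below them, with Ptbp2 at 8.61 ± 2.01 and Celf2 at 7.21 ± 1.13 CPM per kb. Rbfox1 at 3.45 ± 2.27 and Nova1 at 2.96 ± 0.773 CPM per kb overlapped each other and lay below Celf2, and Nova2 was lowest at 1.05 ± 0.418 CPM per kb, apart from Nova1. In KPH2 2 to 4, Rbfox1 stood at 14.7 ± 5.96 CPM per kb (SD, n = 3) and overlapped Mbnl1 above it and Ptbp2 below it in the order. Nova1 was the lowest of the 10 there, at 0.230 ± 0.132 CPM per kb, apart from Nova2 at 0.745 ± 0.305 CPM per kb.

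**Figure D3:**
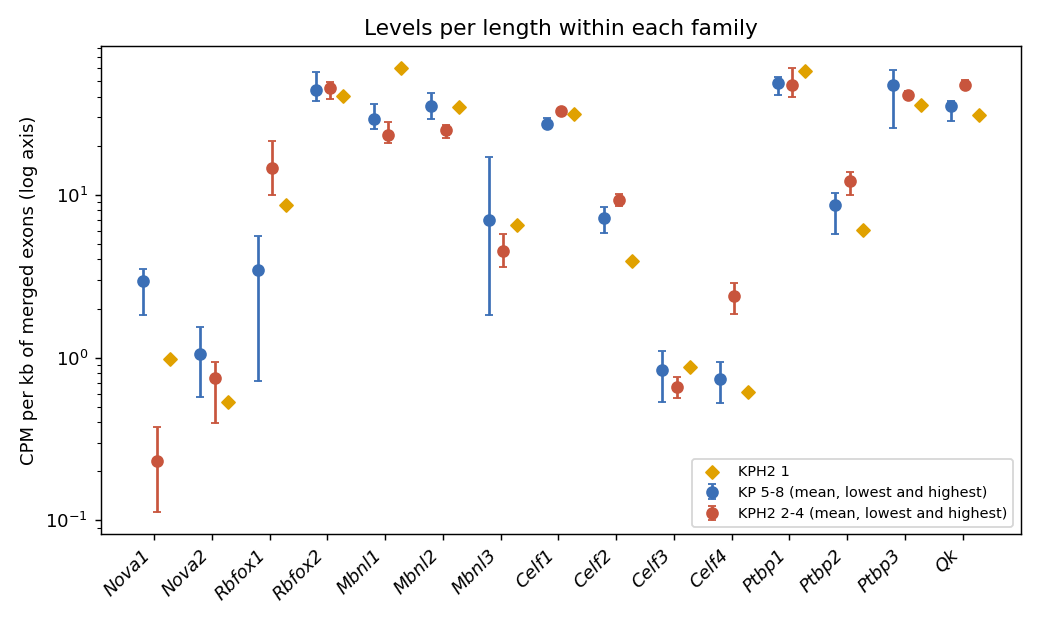
Level of each member, and of the paralogs above 1 CPM in some tumour, as CPM per kb of merged exon on a log axis and ordered by family, with the mean and the lowest and highest tumour of KP 5 to 8 and of KPH2 2 to 4 and the single value of KPH2 1. Nova1 ranged from 1.81 to 3.48 CPM per kb in KP and from 0.113 to 0.373 CPM per kb in KPH2 2 to 4, below Nova2 there.

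Promoter windows were searched for ACGTG and GCGTG, the core letters to which HIF proteins bind as partners of ARNT, on both strands. RefSeq promoter windows on GRCm38.p6, taken as the 250 bases before the start, were held for 9 of the 10 members, 15 windows in all, some of which overlap. A start is that of an annotated transcript and need not be the outermost end of the gene, and the Nova1 window lies inside the gene span given above, near its 5′ end. A core was found in 5 of the 15 member windows and in 38.6% of all 32851 windows. The windows of Nova1 and Rbfox1 are printed because their levels differed most between the groups, with a core in capitals where one was found.

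Nova1, chr12:46818768-46819017, minus strand, no core: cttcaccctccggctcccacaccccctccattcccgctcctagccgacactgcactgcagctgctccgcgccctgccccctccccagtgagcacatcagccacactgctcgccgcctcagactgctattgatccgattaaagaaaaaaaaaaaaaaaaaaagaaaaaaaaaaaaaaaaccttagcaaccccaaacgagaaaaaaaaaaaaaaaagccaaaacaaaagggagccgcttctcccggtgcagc

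Rbfox1, chr16:5884543-5884792, plus strand, 1 core: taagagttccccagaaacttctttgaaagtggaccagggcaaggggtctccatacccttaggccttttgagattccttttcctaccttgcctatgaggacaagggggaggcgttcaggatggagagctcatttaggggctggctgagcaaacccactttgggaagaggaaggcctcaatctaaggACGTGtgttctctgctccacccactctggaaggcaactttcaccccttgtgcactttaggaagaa

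The other start of Rbfox1 has its window at chr16:7069585-7069834, which held no core. A match gives only these letters and is no evidence of binding.

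The genes whose profile over the 8 tumours was most like that of Nova1 were Chl1, Emx2, Zfp618, Ifltd1 and Emx2os. Likeness was the root mean square difference of log2 CPM after each gene's mean was subtracted, 0.552 for Chl1, 0.559 for Emx2, 0.592 for Zfp618, 0.622 for Ifltd1 and 0.635 for Emx2os, where the median of all 14804 genes compared was 1.79. Chl1 encodes a neural cell adhesion molecule of the L1 family, and was found at 5.86, 20.1, 21.6 and 18.1 CPM in KP 5 to 8, at 1.26, 2.10 and 3.04 CPM in KPH2 2 to 4, and at 4.15 CPM in KPH2 1. Emx2 encodes a homeobox transcription factor of the forebrain and urogenital tract, and was measured at 9.49, 9.46, 7.25 and 13.5 CPM in KP, at 0.0899, 0.300 and 1.01 CPM in KPH2 2 to 4, and at 6.07 CPM in KPH2 1. Emx2os, a non-coding RNA transcribed from the opposite strand beside Emx2, was counted at 5.33 to 11.0 CPM in KP, 0.359 to 0.699 CPM in KPH2 2 to 4 and 6.07 CPM in KPH2 1, and its reads cannot be told from those of Emx2 where the genes overlap unless strand was counted. Zfp618, a zinc finger gene, ranged from 12.9 to 20.0 CPM in KP and from 1.17 to 3.30 CPM in KPH2 2 to 4, and Ifltd1, a lamin tail domain gene, from 1.78 to 3.40 CPM and from 0.0999 to 0.180 CPM. All 5 were lower in KPH2 2 to 4 than in every KP tumour, as the choice by likeness to Nova1 sets. KPH2 1 lay below the KP tumours for 4 of them and within their range for Emx2os.

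Among 67 other splicing regulators, listed by family and textbook function, 4 of the 56 tested passed the test as higher in KPH2 2 to 4. None passed as lower, beside 1.24% of all tested genes called as higher and 0.72% as lower. The 4 were Khdrbs3, Rbm20, Rbm38 and Celf4. In all, 36 were fitted higher and 20 lower, with a median log2 fold change of 0.09. Khdrbs3 encodes SLM2 (T-STAR), a STAR-family relative of QKI that regulates neurexin splicing in brain. It rose from 27.5, 35.7, 27.5 and 38.2 CPM in KP 5 to 8 to 97.4, 90.7 and 112 CPM in KPH2 2 to 4, with a log2 fold change of 1.63 (SE 0.17, adjusted p = 0.00957 by edgeR with Benjamini-Hochberg adjustment), but KPH2 1 had 10.3 CPM, below all other tumours. Rbm20 encodes the regulator of titin splicing in heart and skeletal muscle. It rose from 3.48, 6.36, 2.22 and 3.16 CPM to 25.3, 30.9 and 14.2 CPM, with a log2 fold change of 2.63 (SE 0.39, adjusted p = 0.0222 by edgeR), and KPH2 1 had 1.28 CPM. Rbm38 encodes an RNA-binding protein induced by p53 and in muscle differentiation. It rose from 4.15, 4.10, 5.18 and 5.20 CPM to 15.01, 13.3 and 10.7 CPM, with a log2 fold change of 1.48 (SE 0.23, adjusted p = 0.0236 by edgeR), and KPH2 1, at 6.07 CPM, lay just above the KP tumours. Celf4, a paralog of Celf2 known from neurons, rose from 7.34, 4.52, 5.33 and 8.06 CPM to 24.5, 15.8 and 21.1 CPM, with a log2 fold change of 1.68 (SE 0.26, adjusted p = 0.0254 by edgeR), and KPH2 1 had 5.27 CPM, within the KP range.

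KPH2 2 to 4, in which these 4 genes rose, also had the highest muscle marker levels. Within these 3 tumours Rbm20 followed the order of the markers, while Khdrbs3, Rbm38 and Celf4 did not. Within the KP tumours none of the 4 genes followed it, and these orders were not tested. With the mean of the 30 muscle markers as a covariate edgeR called 3 of all 14867 genes, against 292 without it, and none of the 4 passed the test, the log2 fold changes being 1.77 for Khdrbs3, 1.78 for Rbm20, 1.21 for Rbm38 and 1.53 for Celf4, with adjusted p-values of 0.226, 0.633, 0.585 and 0.514 by edgeR. Over all 8 tumours the log2 fold changes were 1.26 for Khdrbs3, 2.24 for Rbm20, 1.27 for Rbm38 and 1.39 for Celf4 without the covariate, and 0.30, 0.30, 0.78 and 0.69 with it. Without the covariate edgeR called 0 of the 56 over all 8, with 9 at an unadjusted p under 0.05 beside 14.7% of all tested genes, and DESeq2 called 3 of the 67, Rbm20, Rbm38 and Celf4, beside 2.88% of all genes. The muscle mean was higher in KPH2 2 to 4 than in any KP tumour. The fit of the 7 tumours with the covariate therefore cannot tell muscle content and genotype apart. The part of muscle tissue in these differences was not tested further. When each of the 7 tumours was left out in turn, Khdrbs3 passed in 7 of 7 fits, Rbm20 in 4, and Rbm38 and Celf4 in 3 each.

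**Figure D4:**
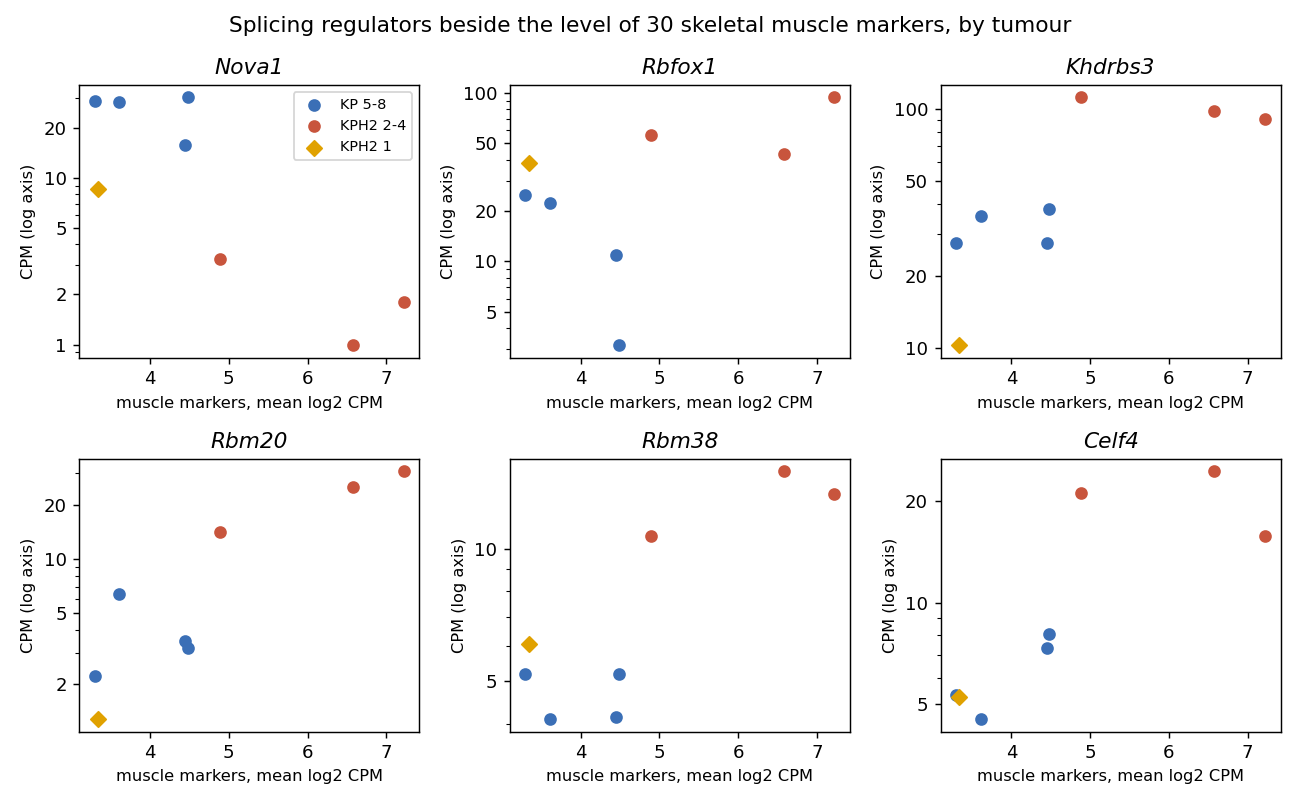
Level of Nova1, Rbfox1 and the 4 other splicing regulators that passed the test, as CPM on a log axis, against the mean log2 CPM of 30 skeletal muscle markers, with 1 point per tumour. KPH2 2 to 4 lie at 4.89 to 7.22 on the muscle axis, to the right of KP tumours at 3.30 to 4.48, and KPH2 1 lies at 3.34 among the KP tumours.

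The remaining paralogs and general splicing factors showed no call. Of the 8 paralogs of the members, 5 were tested, and Celf4 was the 1 called. Celf1 stood at 219.8 to 248 CPM in KP, 268 to 284 CPM in KPH2 2 to 4 and 265 CPM in KPH2 1 (log2 fold change 0.26, SE 0.12). Mbnl3, the family member tied to undifferentiated muscle precursors, varied widely among KP tumours at 21.3, 56.2, 15.99 and 149.7 CPM and was 50.4, 36.7 and 31.3 CPM in KPH2 2 to 4 (log2 fold change −0.63, SE 0.72). Ptbp3, listed in the counts under its older symbol Rod1, was at 193 to 434.5 CPM in KP and 288 to 325 CPM in KPH2 2 to 4 (log2 fold change −0.21), and Celf3 was fitted at −0.35. Rbfox3, Celf5 and Celf6 were under 1 CPM in every tumour and were not tested. Of 12 tested SR proteins, the general activators of exon inclusion, 7 were fitted higher and 5 lower, and of 23 hnRNP proteins, which often repress exons, 19 were fitted higher and 4 lower. None of either list was called by edgeR or by DESeq2, with 0 SR and 1 hnRNP gene at an unadjusted p under 0.05, and the median log2 fold changes were 0.05 and 0.10. That hnRNP-like gene was Pcbp1, with a log2 fold change of 0.44, named here after its values were seen. Among tissue regulators, Rbm24, which promotes muscle splice forms, was found at 2.08, 5.51, 1.33 and 1.51 CPM in KP and at 13.9, 35.2 and 4.50 CPM in KPH2 2 to 4, with 0.479 CPM in KPH2 1. Msi2 had a log2 fold change of 0.85 with an adjusted p of 0.0645 by edgeR, Rbm24 had 2.80 with 0.101, and Rbm47 had −0.72 with 0.219, all chosen after their values were seen. DESeq2 called Msi2 and Rbm24 with KPH2 2 to 4, and neither with KPH2 1 included.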

How the data were processed

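RNA of 8 FFPE tumours was sequenced from stranded, ribosome-depleted libraries, each from a separate mouse. The authors deposited raw counts per RefSeq gene, from unique alignments to GRCm38 (STAR 2.4, htseq-count 0.6.1), and rlog tables, in which the authors deposited log2 values from DESeq2 1.6. No other value columns were left unused (0). Counts were fitted with edgeR 4.0.16 in R 4.3.3 (TMM, filterByExpr with minimum count 10 and minimum total count 15, robust quasi-likelihood test, no covariates, KPH2 2 to 4 against KP 5 to 8), with Benjamini-Hochberg adjustment over 14867 genes and a threshold of 0.05. Log2 CPM used a prior count of 2. Depth limits genes at a few CPM, where few reads were counted. Even the closest libraries differed beyond sampling noise (chi-square over degrees of freedom, 22.7), so all were kept as separate samples.

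The members and lists were chosen with earlier results of these data known. Genes named are the members, their paralogs, other regulators with an adjusted p under 0.05 (at most 8), the 5 profiles nearest to Nova1, and Epas1. Other genes were named after their values were seen, as stated. Alternatives tried were no filter, size factors of DESeq2, all 8 tumours, each tumour left out, the muscle marker mean as a covariate, DESeq2 1.42.0 with a normal prior and no robust estimates. The fits of all 8 tumours with the covariate or with DESeq2, and the difference of the authors' rlog values, were added after seeing the data. Replicate numbers are not shared by the groups. Positions came from RefSeq on GRCm38.p6, and exon lengths and exons from GENCODE vM21. An allele shared by both groups and a result for a marker gene are not reported here.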

Additional observations from a re-analysis of the deposited data

Results flagged for a closer look

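Of 56 groups of 4 tumours tested on log2 CPM, 5 held 1 tumour far from the other 3 by Dixon's criterion, where chance gives about 1 in 20 groups. Nova1 was 4.00 in KP 5 and 4.84 to 4.94 in the other KP tumours. Qk was 8.65 in KP 5 and 9.05 to 9.07 in the others. Ptbp3 (Rod1) was 7.60 in KP 5 and 8.57 to 8.76 in the others, so that 3 of the 5 values came from KP 5. Celf6, under 1 CPM throughout, was −2.38 in KP 8 and −1.07 to −0.83 in the others. Khdrbs3 was 3.39 in KPH2 1 and 6.51 to 6.80 in the other KPH2 tumours.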

How the results depend on the processing

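The number of genes called, 292 with KPH2 2 to 4, was 1 over all 8 tumours, 3 with the muscle covariate, 1169 with DESeq2, 0 over all 8 tumours with the muscle covariate and 630 over all 8 tumours with DESeq2. It ran from 55 (without KPH2 2) to 349 (without KP 5) when tumours were left out in turn. Of the other splicing regulators, 4 were called, against 0 over all 8 tumours, with the muscle covariate or with both, 6 with DESeq2 and 1 to 4 with a tumour left out (1 without KP 7 and 1 without KPH2 2). The causes were not tested. The log2 fold change of Nova1, whose direction was set by its choice, ranged from −4.21 to −1.92 over 16 alternatives, with −2.23 over all 8 tumours with the muscle covariate, and that of Rbfox1 from 1.41 to 2.70. The direction of Mbnl1 changed with KPH2 1, that of Nova2 with the muscle covariate (0.80) and that of Celf2 over all 8 tumours with it (−0.31), while Rbfox2 and Ptbp1 lay on either side of 0. No paired analysis was possible because the groups share no replicate numbers.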
